A study of Mus musculus with 4 samples.

Results

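In the salty and urea-rich interstitium of the renal medulla, urea is recycled by transporters and cells balance tonicity with osmolytes. For these 2 tasks, 8 genes were followed here in mouse kidney. Of these, Slc14a1 and Slc14a2 are urea transporter genes, and Akr1b3, Slc5a3, Slc6a6 and Slc6a12 are osmolyte genes. Nfat5 is a tonicity-responsive transcription factor gene and Hspa4l a chaperone gene. All 8 were chosen for their known role in these tasks, with earlier results of these data known. Every array probe whose RefSeq accession belongs to 1 of them was taken. This gave 11 probes of 8 genes among 55681 probes (20660 symbols) on the array. All 11 probes were well above background on all 4 arrays.

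Total RNA came from mouse kidney 2 weeks after bile duct ligation (BDL), a surgical model of cholestasis in which the common bile duct is tied off, or after a sham operation. There were 2 arrays per operation with 1 RNA sample each, called a kidney below, and the series' design calls the replicates biological. Strain, sex, age, which part of the kidney was taken and whether RNA was pooled over animals are not given in the sources used here. Each value is a log2 signal from which its array's 75th percentile was subtracted, so that 0 stands for that percentile, and differences are BDL minus sham. A level at one probe cannot be set against the level at another.

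As background, urine is concentrated because salt and urea pile up in the inner medulla, and urea is recycled through facilitated transporters: UT-A, encoded by Slc14a2, in the terminal collecting duct and thin descending limb, and UT-B, encoded by Slc14a1, in the descending vasa recta, in red blood cells and in urothelium. Medullary cells balance the outside tonicity with organic osmolytes. Sorbitol is made by aldose reductase (Akr1b3), and inositol, taurine and betaine are taken up by SMIT1 (Slc5a3), TauT (Slc6a6) and BGT1 (Slc6a12). NFAT5, also called TonEBP, binds tonicity-responsive enhancers near such genes, and HSPA4L, also known as osmotic stress protein 94, belongs to the HSP110 chaperones.

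The enhancer that NFAT5 binds holds the letters TGGAAA, and RefSeq promoter sequence (GRCm38.p6) was available for 4 of the 8 genes in 8 windows of 250 bases upstream of a start site. The letters, searched on both strands, were present in 1 of the 8 windows, that of the most upstream start site of Slc6a12, where they begin 75 bases before the start. Of all 32851 promoter windows, 18.6% hold the letters, and 4.31% hold the longer tonicity-responsive enhancer consensus, which the Slc6a12 window also matches. The stretch is shown because Slc6a12 is 1 of the 2 genes with the widest range below. It lies on the plus strand at chr6:121342459-121342544, upstream of the gene's first exon, with the 6 letters in capitals.
Slc6a12: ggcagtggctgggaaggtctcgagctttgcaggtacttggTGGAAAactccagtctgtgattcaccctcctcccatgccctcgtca
No window of Slc5a3, Nfat5 or Hspa4l held the letters, which says only that they are not in those 250 bases. A match is a description of the letters and was not tested as a binding site.

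None of the 11 probes passed an adjusted p of 0.05 between BDL and sham (limma, Benjamini-Hochberg over 32283 probes), and 0 of 11 had an unadjusted p under 0.05. Over the whole array 0% of the probes passed after adjustment, and 5.65% had an unadjusted p under 0.05, 2.71% higher and 2.94% lower in BDL. Kidneys of the same operation differed widely at some of these genes. The lead probe of Slc14a2 differed 9.94-fold between the 2 sham kidneys and 28.5-fold between the 2 BDL kidneys, and Slc6a12 8.14-fold and 8.19-fold. Akr1b3, in contrast, stayed within 1.14-fold over all 4 kidneys at its brighter probe. The accounts below follow the genes by role.

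Slc14a2 was measured by 2 probes designed on different transcripts. The probe on NM_207651 read 0.50 and 3.81 in the sham kidneys and -3.14 and 1.69 in the BDL kidneys. In processed signal these were 1000 and 11900 units in sham against 83.9 and 3050 in BDL. Sham replicate 2 was highest and BDL replicate 1 lowest, 124-fold apart, and the groups overlapped, since BDL replicate 2 stood above sham replicate 1. The group means were 2.15 ± 2.34 in sham and -0.72 ± 3.42 in BDL (SD, n = 2), a difference of -2.88 with a 95% interval from -7.98 to 2.22 (limma, SE 1.94, adjusted p = 0.872). The point estimate is a 7.34-fold lower mean in BDL, and the interval runs from 0.00397-fold to 4.67-fold.

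By the size of its mean difference the probe ranked at the 99.8 percentile of all retained probes, and the spread within groups was as extreme. Only 0.121% of the probes had a pooled within-group SD as large as its 2.93. The difference was -0.46 without BDL replicate 1, -1.22 without sham replicate 2, -4.53 without sham replicate 1 and -5.29 without BDL replicate 2, so each kidney moved the estimate by more than 1.5 times.

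The second Slc14a2 probe, on NM_030683, read -2.91 and -2.58 in sham and -3.0 and -2.94 in BDL. The sham kidneys were slightly above the BDL kidneys, with no overlap, and differed by -0.22 (SE 0.22, limma adjusted p = 0.898). Between sham kidneys it moved by 1.26-fold and between BDL kidneys by 1.05-fold. The probes of the gene therefore disagree: the first ranged over 124-fold across the 4 kidneys and the second over 1.34-fold. The gene codes for several UT-A transcripts, and which of them each probe reads was not tested.

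Slc14a1, which lies beside Slc14a2 in the genome, encodes UT-B. Its probe read -3.05 and -0.15 in sham and -0.93 and -2.29 in BDL. Sham replicate 2 was again highest, but here BDL replicate 1 exceeded BDL replicate 2, the reverse of Slc14a2. The means were -1.60 ± 2.05 and -1.61 ± 0.96 (SD, n = 2) and their difference was -0.01, with a 95% interval from -2.83 to 2.81 (limma, SE 1.07, adjusted p = 0.999). The near-equal means hide a 7.47-fold gap between the sham kidneys, a size reached by 0.52% of the probes. The difference was 1.44 without sham replicate 2 and -1.46 without sham replicate 1.

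**Figure D1:**
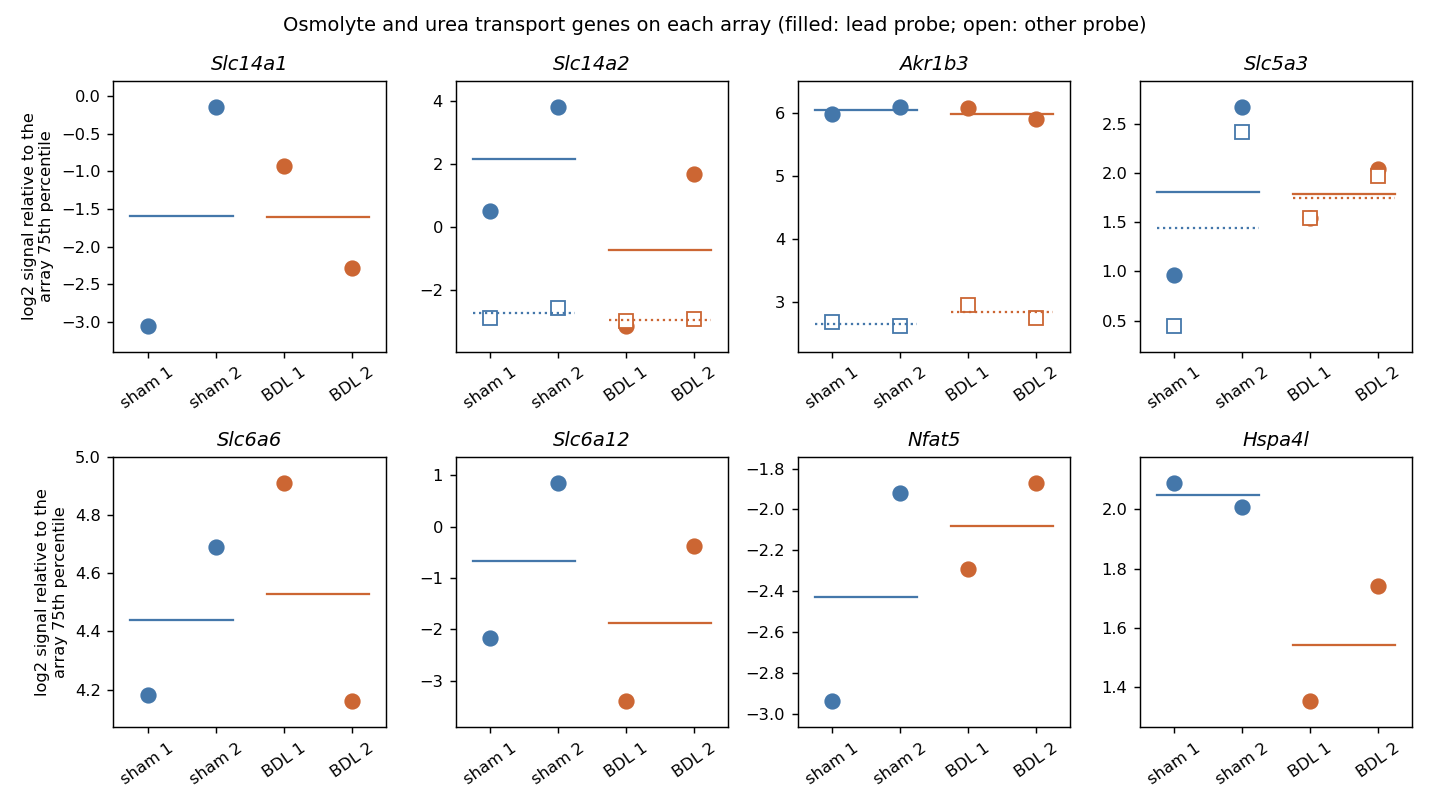
Log2 signal relative to the array's 75th percentile (vertical axis, its own range in each panel) for the 8 genes in each of the 4 kidneys (horizontal axis); filled circles are the brighter (lead) probe of a gene, open squares its other probe, and lines the group means. For Slc14a2 and Slc6a12, sham replicate 2 is highest and BDL replicate 1 lowest, while Akr1b3 is flat at its lead probe.

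Of the osmolyte genes, Slc6a12 shared the kidney order of Slc14a2. BGT1, its product, takes up betaine together with sodium and chloride. The probe read -2.17 and 0.85 in sham and -3.40 and -0.37 in BDL, or 158, 1530, 70.1 and 732 signal units. The kidneys ran from sham replicate 2 over BDL replicate 2 and sham replicate 1 to BDL replicate 1, a range of 19.1-fold. The means of -0.66 ± 2.14 in sham and -1.88 ± 2.15 in BDL (SD, n = 2) differed by -1.22, with a 95% interval from -4.97 to 2.52 (limma, SE 1.42, adjusted p = 0.909). The sign turned to 0.29 without sham replicate 2 and likewise without BDL replicate 1, and the difference was -2.74 without either of the other kidneys. Over all retained probes, 3.69% had this order of the 4 kidneys. The order was taken from Slc14a2, which has it by definition, and Slc6a12 was the only other of the 8 lead probes that had it.

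Slc5a3 encodes SMIT1, which imports myo-inositol with sodium. Its lead probe read 0.96 and 2.67 in sham and 1.54 and 2.04 in BDL. Both BDL kidneys fell between the sham kidneys, and the difference was -0.03 with a 95% interval from -1.64 to 1.59 (limma, SE 0.61, adjusted p = 0.997). A second probe of the gene was printed at 10 spots of every array, which shows how much of the spread comes from the spots. On sham replicate 1 its 10 spots averaged 0.45 with an SD of 0.05, and on sham replicate 2 they averaged 2.42 with an SD of 0.05. The BDL kidneys averaged 1.54 (SD 0.06 over spots) and 1.97 (SD 0.04). The lowest spot of sham replicate 2 (2.35) lay above the highest spot of the other 3 kidneys (2.03).

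The gap of 1.97 between the sham kidneys is 3.91-fold, and the spot SD of 0.04 to 0.06 is small beside it. These spots share 1 labelled RNA per array and are not replicates of a kidney. Over all 399 probes printed 10 times, the median SD over spots was 0.10. The BDL minus sham difference of this probe was 0.32 (SE 0.69, limma adjusted p = 0.948), opposite in sign to the lead probe, and 1.30 without sham replicate 2 but -0.67 without sham replicate 1. Mrps6, a mitochondrial ribosomal protein gene whose annotated span overlaps that of Slc5a3, read 5.08 and 6.15 in sham and 5.42 and 5.53 in BDL, also highest in sham replicate 2 and lowest in sham replicate 1.

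**Figure D2:**
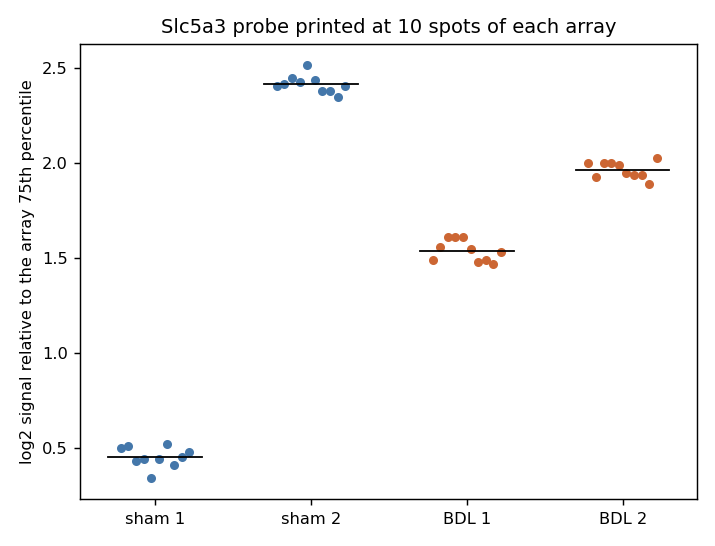
Log2 signal relative to the array's 75th percentile (vertical axis) of the Slc5a3 probe at each of its 10 spots (points) on the 4 arrays (horizontal axis), with the mean of the spots as a line. The spots of 1 array lie close together (SD 0.04 to 0.06), and sham replicate 1 at 0.45 and sham replicate 2 at 2.42 enclose both BDL kidneys.

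Slc6a6 encodes TauT, the taurine importer, which is also active outside the medulla. It read 4.18 and 4.69 in sham and 4.91 and 4.16 in BDL. The highest and the lowest value were both BDL kidneys, 1.68-fold apart. The difference of 0.09 had a 95% interval from -0.84 to 1.02 (limma, SE 0.35, adjusted p = 0.973) and turned to -0.28 without BDL replicate 1 and to -0.16 without sham replicate 1.

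Akr1b3 encodes aldose reductase, which reduces glucose to sorbitol. The lead probe read 5.99 and 6.09 in sham and 6.08 and 5.90 in BDL, between 45200 and 57800 signal units with no saturated spot. The groups overlapped and differed by -0.05, with a 95% interval from -0.58 to 0.48 (limma, SE 0.20, adjusted p = 0.977). Of all probes, 85.8% had a larger or equal within-group SD than its 0.10. The other probe read 2.67 and 2.62 in sham against 2.95 and 2.74 in BDL, with no overlap and a difference of 0.20 (SE 0.20, limma adjusted p = 0.900). Akr1b3 has close relatives whose transcripts an array probe can also bind, and of these Akr1b10 was 1.55-fold lower in BDL (-0.63, SE 0.26, limma adjusted p = 0.867) while Akr1b8 read 2.16 and 1.56 in sham and 2.95 and 0.92 in BDL.

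Nfat5 read -2.94 and -1.92 in sham and -2.29 and -1.87 in BDL. Sham replicate 1 was lowest, and the groups overlapped. The difference was 0.35, with a 95% interval from -0.74 to 1.43 (limma, SE 0.41, adjusted p = 0.911), and -0.17 without sham replicate 1. NFAT5 is also controlled by its entry into the nucleus and its activity, which an RNA array does not measure.

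Hspa4l was the lead probe whose kidneys separated by operation. It read 2.09 and 2.01 in sham and 1.35 and 1.74 in BDL, or 3030, 3430, 1890 and 3150 signal units. Both BDL kidneys lay below both sham kidneys, by a difference of means of -0.51 or 1.42-fold (limma, SE 0.23, 95% interval from -1.11 to 0.10, adjusted p = 0.867). The difference was between -0.70 and -0.31 with each kidney left out in turn, so that its sign held in those 4 fits while its p did not pass. Across the array, 36.7% of the retained probes had groups that did not overlap, and of the 11 probes here 3 did: 1 higher in BDL (the second Akr1b3 probe) and 2 lower (Hspa4l and the second Slc14a2 probe), against 18.2% higher and 18.5% lower over all probes. A share of that size is near the background.

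**Figure D3:**
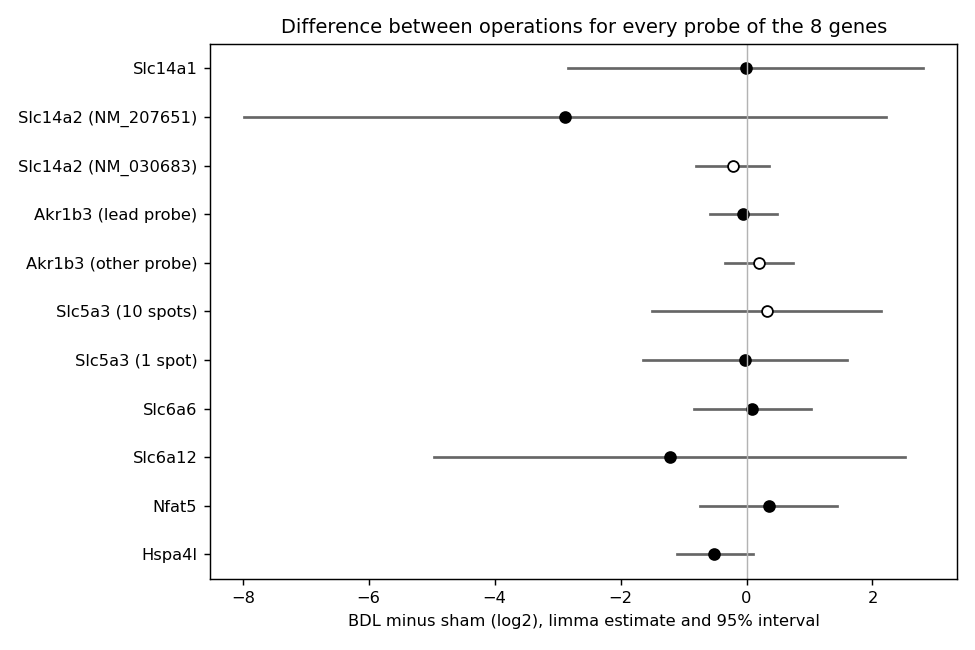
Difference between BDL and sham on the log2 scale (horizontal axis) for each of the 11 probes (vertical axis), with the limma 95% interval; filled points are lead probes. Every interval includes 0, and those of Slc14a2 (NM_207651), Slc6a12 and Slc14a1 are the widest.

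As a group, 2 of the 8 lead probes were higher and 6 lower in BDL, with a median difference of -0.04, against a median of 0.00 over 15023 lead probes with a symbol, of which 49.7% were higher (49.9% of all retained probes). The median was -0.67 without sham replicate 1 and 0.32 without sham replicate 2, so its sign rests on which sham kidney is kept. Group means at least 2-fold apart were found for 2 of the 11 probes, the lead probes of Slc14a2 and Slc6a12, whose groups overlapped, and for 4.48% of all probes. Between the sham kidneys, 5 of the 8 lead probes were at least 2-fold apart, and between the BDL kidneys 3 of 8, where all retained probes gave 10.2% and 5.62%.

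**Figure D4:**
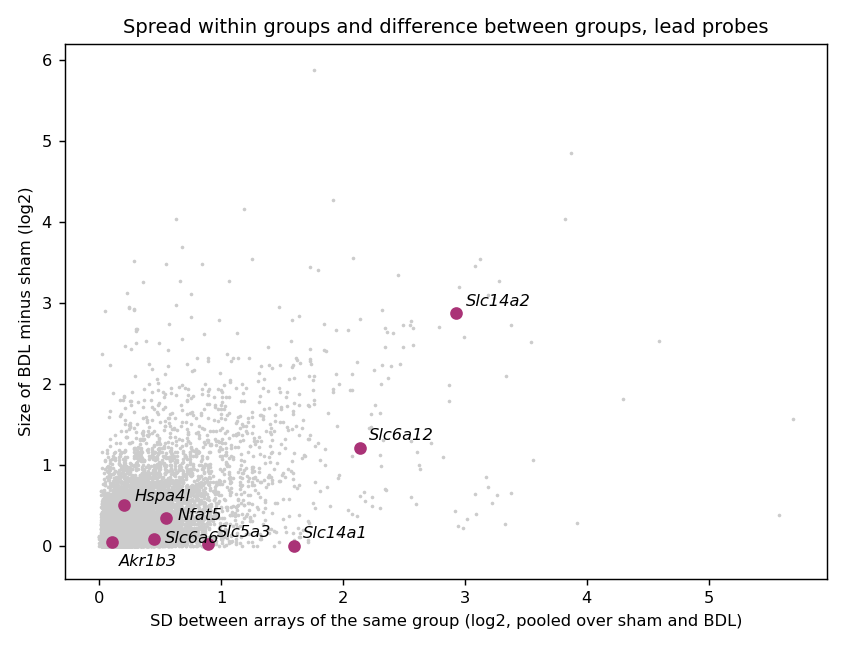
Size of the BDL minus sham difference (vertical axis, log2) against the pooled SD between kidneys of the same operation (horizontal axis, log2) for 15023 lead probes with a RefSeq symbol (grey) and the 8 genes (coloured). Slc14a2, Slc6a12 and Slc14a1 lie far to the right, with SDs of 2.93, 2.14 and 1.60, while Akr1b3 lies at 0.10.

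Markers of the cells that hold these genes were read in the same kidneys, since in bulk tissue fewer cells of a type and less RNA per cell cannot be told apart. Kidney markers were strong throughout: Slc34a1, the phosphate transporter of proximal tubule, read between 8.14 and 8.44 and Umod, uromodulin of the thick ascending limb, between 7.82 and 8.77. Of the 10 thin limb and inner medulla markers listed, 9 were retained and 0 passed the test. Their summed signal was 7.48 and 7.96 (log2) in sham and 6.94 and 7.41 in BDL, highest in sham replicate 2 and lowest in BDL replicate 1. That sum is carried by Aqp1, which proximal tubule also expresses and which read between 70800 and 114000 signal units. The median of the same 9 markers was -0.90 and 1.38 in sham and -0.69 and -0.41 in BDL, with sham replicate 2 again highest but sham replicate 1 lowest. The summed proximal tubule markers, by comparison, ranged from 11.03 to 11.36, with sham replicate 1 highest.

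Some of the thin limb and collecting duct markers had the kidney order of Slc14a2. Bst1 had the same kidney order, with -0.90 and 1.54 in sham and -2.22 and -0.12 in BDL, a range of 13.5-fold. Cryab, the small heat shock protein αB-crystallin that is abundant in inner medulla, read 4.24 and 5.70 in sham and 3.52 and 4.55 in BDL, in the same order. Cryab and the principal cell marker Aqp2 are also counted below among the NFAT5-responsive genes, so they are not markers of cell content alone. Among the principal cell markers of the collecting duct, Fxyd4 (3.94, 5.55, 3.58 and 4.29), Aqp4 (-0.25, 1.74, -0.32 and 0.48) and Elf5 (-2.63, -0.54, -2.69 and -1.25), given as sham 1, sham 2, BDL 1 and BDL 2, repeated the order. Bst1, Aqp4 and Elf5 are named here after their values were seen.

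By count, 3 of 9 thin limb and inner medulla markers and 3 of 10 principal cell markers shared the kidney order of Slc14a2. Of thick ascending limb markers 1 of 10 had it, of proximal tubule markers 0 of 14, and of all probes 3.69%. The order was not confined to markers: 2 of 9 other NFAT5-responsive genes and 2 of 19 genes of osmolyte synthesis and breakdown had it. So did 1 of 13 close relatives, 1 of 9 urea and arginine genes and 1 of 15 vasopressin and water genes. Cryab and Aqp4 are counted on more than 1 list. The urothelium, endothelial, red blood cell and interferon lists read below held 0 such genes. The order takes no account of how far apart the kidneys were. Other markers did not have it: Aqp1, the water channel of thin descending limb and proximal tubule, read 7.19 and 7.07 in sham and 6.58 and 6.89 in BDL, and Aqp2, the vasopressin-regulated channel of principal cells, 2.78 and 4.03 against 3.92 and 3.60. The part of these markers in the values of Slc14a2 and Slc6a12 was not tested.

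Slc14a1 is also expressed by urothelium, red blood cells and endothelium. Summed urothelium markers, of which 10 of 11 were retained and 0 passed, stood at 4.55 and 4.86 in sham and at 6.43 and 4.33 in BDL, with BDL replicate 1 highest. Upk2, a plaque protein of the urothelial surface, read -1.98 and -0.26 in sham and 2.11 and -3.67 in BDL, 55.1-fold apart between the BDL kidneys. Slc14a1 was higher in BDL replicate 1 than in BDL replicate 2, by 2.56-fold, and higher in sham replicate 2 than in sham replicate 1. Over the 4 kidneys its order was another than that of the urothelium sum. Slc14a1 was highest in sham replicate 2 (-0.15) and lowest in sham replicate 1 (-3.05), whereas the urothelium sum was lowest in BDL replicate 2. Summed red blood cell markers were 9.57 and 9.27 in sham and 10.58 and 9.76 in BDL (8 of 15 retained, 0 passed). All 8 were higher in BDL, with a median of 1.32, where 49.9% of all probes were higher. Of these, 5 were higher at an unadjusted p under 0.05 (limma) and 6 had no overlap, against 2.71% and 18.2% of all probes. Summed endothelial markers were 6.02, 6.47, 6.48 and 6.41. The part of the urothelium, red blood cell and endothelial markers in the Slc14a1 values was not tested.

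**Figure D5:**
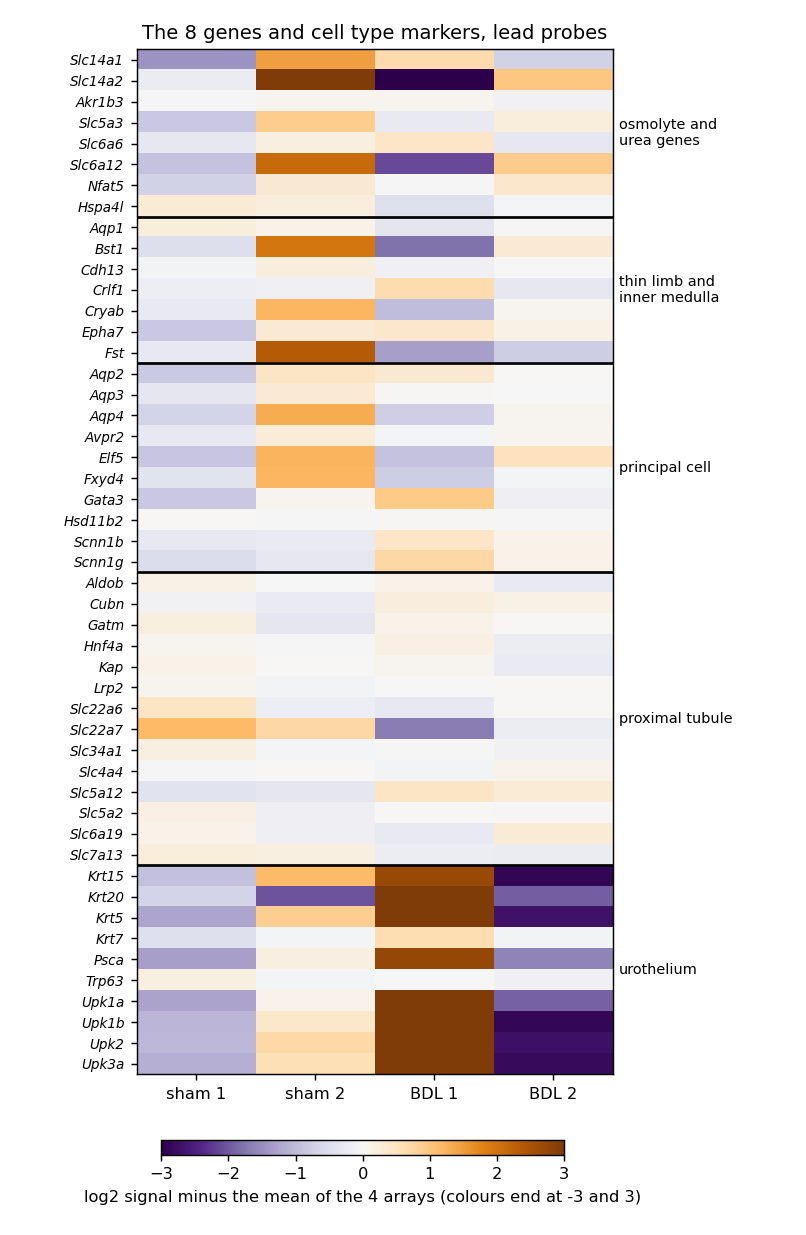
Log2 signal minus the mean of the 4 arrays (colour, ending at -3 and 3) for lead probes of the 8 genes and of genes of 4 marker lists (vertical axis) in the 4 kidneys (horizontal axis). Slc14a2, Slc6a12, Bst1 and Cryab are highest in sham replicate 2 and lowest in BDL replicate 1, most urothelium markers are highest in BDL replicate 1, and most proximal tubule markers stay near 0.

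Other genes under NFAT5 control and of the osmolyte routes were read from lists. Of 10 further NFAT5-responsive genes, 9 were retained and 0 passed in either direction, 3 being higher and 6 lower in BDL with a median of -0.20, which was -0.33 without sham replicate 1 and -0.11 without sham replicate 2. Groups did not overlap for 1 gene higher and 3 lower of the 9, where 36.7% of all probes did not overlap. Slc38a2, an amino acid importer induced by hypertonicity, read 2.66 and 2.52 in sham and 1.96 and 2.28 in BDL (-0.47, SE 0.22, limma adjusted p = 0.867). Pnpla6, the phospholipase that yields the osmolyte glycerophosphocholine, read 4.03 and 4.0 against 3.57 and 3.77 (-0.34, SE 0.20). Sgk1, a kinase induced by aldosterone as well as by tonicity, went the other way, 2.72 and 3.01 against 3.52 and 3.88 (0.83, SE 0.24, limma adjusted p = 0.864). These 3 were picked by their small p and are among the 4 without overlap.

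Enzymes and transporters of osmolyte synthesis and breakdown were lower in BDL by group means in 15 of 19 retained genes, with a median of -0.14 and 0 genes past the test, where 50.1% of all probes were lower. The median lay between -0.18 and -0.12 with each kidney left out. Csad, which makes the taurine precursor hypotaurine, read 5.45 and 5.54 in sham and 4.95 and 4.94 in BDL, 1.46-fold lower (-0.55, SE 0.19, limma adjusted p = 0.867). Aldh7a1, which forms betaine from betaine aldehyde, was 1.51-fold lower (-0.60, SE 0.29), and Gpcpd1, which breaks down glycerophosphocholine, 1.37-fold lower (-0.45, SE 0.23). Bhmt, which consumes betaine, was 1.71-fold higher (0.77, SE 0.32). These 4 were picked by their small p and are among the 9 of 19 genes without overlap, 3 higher and 6 lower, where 18.2% and 18.5% of all probes were so. Sord, which turns sorbitol into fructose, differed by -0.11 (SE 0.23) and Miox, which breaks down inositol, by -0.13 (SE 0.21), both with overlap.

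Close relatives of the 8 genes showed no common direction, with 6 of 13 higher, 7 lower, 0 passed and a median of -0.09. Slc6a8, the creatine transporter in the family of Slc6a6 and Slc6a12, read 5.65 and 5.57 in sham and 6.11 and 6.13 in BDL (0.51, SE 0.19, limma adjusted p = 0.867). Slc6a13, a GABA transporter gene, differed by 0.08 (SE 0.20). Nfatc3, a calcium-controlled relative of Nfat5, was 1.47-fold lower (-0.55, SE 0.21), and Hspa4, next of kin to Hspa4l, differed by 0.10 (SE 0.23).

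Genes of urea and arginine handling were higher in 5 and lower in 4 of 9 retained genes, with 0 passed and a median of 0.03, which was -0.13 without sham replicate 2 and 0.18 without BDL replicate 2. Asl, which releases arginine in the kidney, read 4.89 and 4.22 in sham and 5.25 and 5.11 in BDL (0.62, SE 0.29). Arg2, the renal arginase that produces urea, read 0.30 and -0.11 against 0.08 and -0.29, with overlap. Genes of vasopressin signalling and water reabsorption, which set how much urea and water leave the collecting duct, were higher in 9 and lower in 6 of 15, with 0 passed and a median of 0.02, which was -0.27 without sham replicate 1 and 0.25 without sham replicate 2. Avpr2, the vasopressin receptor of the collecting duct, read 1.47 and 2.02 in sham and 1.70 and 1.83 in BDL.

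Of the 8 lead probes, that of Slc14a2 had the largest SD over the 4 kidneys (2.91), and the genes with the profile most like it were searched among 15022 lead probes with a symbol by the root mean square difference of mean-centred log2 values. The 5 nearest were Tnn at 0.48, Sycn at 0.94, Nrg2 at 1.00, Slc6a12 at 1.05 and Spag5 at 1.14. Slc6a12 was thus the fourth nearest of all named genes. Tnn and Nrg2 were well above background on 1 of the 2 BDL kidneys only, so their low end is uncertain, and 4 values per gene allow no more than this description.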

How the data were processed

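Cy3-labelled kidney RNA was hybridised to 1-colour arrays, per the labels' protocols, and scanned spots were quantified in Agilent Feature Extraction 11.0.1.1 (submitters' processing notes). The scanner's processed signal, deposited per array, is a linear intensity per the file headers, and its steps after background subtraction are not given in the sources used here. The authors' deposited table holds the same intensities divided by 1 constant per array (709.0 to 939.8, column medians 0.328 to 0.339), and what set each constant is unknown. The 4 arrays share a slide and a scan time, so neither was a block.

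Log2 signals were centred on each array's 75th percentile (712 to 945 units), without control and outlier-flagged spots, and averaged per probe; 0 spots were saturated and 57.7% to 63.1% were well above background. Accessions were matched to a RefSeq table of GRCm38.p6, which named 27229 of 55668 analysed probes; the array grid lists mm9, so no array coordinates were used. Probes well above background on both arrays of a group were retained (32283), and a gene's lead probe is its brightest. Groups were compared in limma 3.58.1 under R 4.3.3, two-sided, adjusted over retained probes, after tests on simulated data; a permutation of 2 against 2 arrays cannot go below 0.333. The number of arrays limits the precision. Named are all probes of the 8 genes, up to 4 genes of smallest p per list and defining markers; Arg2, Sord, Miox, Slc6a13, Hspa4, Akr1b8, Mrps6, Hsd11b2, Upk2, Bst1, Aqp4 and Elf5 were named after their values were seen. The genes and lists were chosen with earlier results of these data known. Whether same-numbered replicates were paired is not given in the sources used here, and r was 0.07 between the sham and BDL gaps over all retained probes. Alternatives covered normalization, background, filters, probe choice, array weights, a replicate block and leaving out each array. Results of some markers are not reported here.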

Additional observations from a re-analysis of the deposited data

How the results depend on the processing

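No probe of the array, of the 8 genes or of the lists passed under any of the 13 alternatives run (0 each), while the probes at an unadjusted p under 0.05 ranged from 1056 without BDL replicate 1 to 3854 without sham replicate 2, against 1823. The replicate block grouped arrays by replicate number, and whether these were pairs is not given. With it 0 probes passed, the median difference of the 8 genes was -0.04 and no adjusted call changed. However, 2 of the 11 probes then had an unadjusted p under 0.05, against 0 of 11 without the block. These were the lead probes of Slc14a2 (0.00279, adjusted p = 0.546, limma) and Slc6a12 (0.00528, adjusted p = 0.661, limma). Slc14a2 without BDL replicate 2 (0.0222) and the second Slc5a3 probe without sham replicate 2 (0.0161) also had such an unadjusted p (limma). Signs of small differences turned, and the cause was not tested: Slc14a1 was 0.01 with median centring, Akr1b3 0.01 with quantile normalization and Slc5a3 0.06 with normexp. With 1 array left out, differences ranged from -1.46 to 1.44 for Slc14a1, -0.14 to 0.04 for Akr1b3, -0.88 to 0.83 for Slc5a3, -0.28 to 0.47 for Slc6a6, -2.74 to 0.29 for Slc6a12, -0.17 to 0.86 for Nfat5, -5.29 to -0.46 for Slc14a2 and -0.70 to -0.31 for Hspa4l, and the median of the 8 from -0.67 to 0.32. The lone array of a group is then assumed to vary like the others. Normexp used the median spot signal, since the mean signal was not used here. The median of the 8 genes was not run on the authors' table, of which 5 of the 8 lead probes were analysed. The lead probes of Slc14a1, Slc14a2 and Slc6a12, the genes with the widest spread, are absent from that table. For these, 12 of the 13 alternatives were run.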

Other observations

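Scnn1b, the beta subunit of the collecting duct sodium channel, did not have the kidney order of Slc14a2. It read 0.69 and 0.74 in sham and 1.42 and 1.12 in BDL (0.55, SE 0.21, limma adjusted p = 0.867). Hsd11b2, which protects the mineralocorticoid receptor from cortisol and corticosterone in the same cells, stayed between -0.12 and -0.06 in all 4 kidneys. Of the 10 retained principal cell markers 6 were higher in BDL, 3 lower and 1 at a difference of 0.00 after rounding, with 0 past the test (limma). Their median was 0.03, but -0.26 without sham replicate 1 and 0.47 without sham replicate 2. The 1 of them at an unadjusted p under 0.05, Scnn1g, was well above background on the BDL arrays alone and was retained through them, so its difference is not given. Scnn1g is still counted among the 6 higher and in the median, so neither can be read as a result about these cells. Of the 10 thick ascending limb markers 2 were higher, 7 lower and 1 at a difference of 0.00 after rounding, with 0 past the test (limma). Among these markers 1 had an unadjusted p under 0.05 (limma). Their median was -0.21, which was -0.52 without sham replicate 1 and 0.22 without sham replicate 2. Over all probes 5.65% had an unadjusted p under 0.05. Fst, follistatin, read -1.27 and 1.38 in sham and -2.30 and -1.74 in BDL, 4.21-fold lower in BDL with no overlap (-2.07, SE 0.91, limma adjusted p = 0.867). Its sham kidneys were 6.27-fold apart, with sham replicate 2 the higher. Fst is 1 of the 9 retained thin limb and inner medulla markers, of which 3 were higher and 6 lower in BDL. Of those 3, 1 was well above background on only 1 sham array and was retained through the BDL arrays. The median of these 9 was -0.40, but 0.03 without sham replicate 2.

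Interferon response genes were lower in BDL by group means in 10 of 11 retained genes, with a median of -1.29, 0 past the test (limma) and 4 lower at an unadjusted p under 0.05, where 50.1% of all probes were lower and 2.94% were lower at that p. Their summed log2 signal was 5.22 and 3.78 in sham and 3.51 and 3.11 in BDL, highest in sham replicate 1. The median was -0.74 without sham replicate 1 and -2.16 without sham replicate 2. Their part in the values of the 8 genes was not tested.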
